A study of Bos taurus with 6 samples.

Results

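The BCL2 family decides whether the outer mitochondrial membrane of a cell stays intact, and 10 of its genes were followed here in bovine blastocysts. They were BAX, BAK1, BID, BCL2L11, BAD, BCL2L1, MCL1, BBC3, PMAIP1 and BOK, taken as the rows of the deposited expression table that carry these gene names. Each name was found in 1 row, so the 10 genes stand among 36075 genes in the table. The study asked what melatonin (MT), an antioxidant hormone, changes in embryos when it is added to the medium in which oocytes mature. Oocytes came from slaughterhouse ovaries, were matured for 22 h with 1e-07 mol/L MT or with none, and were fertilized and cultured in the same way in both groups to blastocysts. There were 3 libraries from control blastocysts and 3 from MT-treated blastocysts, each from a pool of 3 embryos, with the 3 replicates of a group taken from separate in vitro production runs. Within a run, the oocytes were combined, divided at random among treatments and handled side by side, so control and MT-treated libraries may come from shared runs, which the labels do not show. The concentration, pool size and runs come from the methods of the study, while group and replicate number come from the labels. The exposure to MT ended with oocyte maturation, days before the embryos were collected.

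In this family, MCL1 and BCL2L1 (whose product is BCL-XL) are survival proteins that hold the death machinery in check. BAX and BAK1 are the effectors that open pores in the outer mitochondrial membrane and let cytochrome c escape, and BOK is a related effector that is kept low mainly by breakdown of its protein. BID, BCL2L11 (BIM), BBC3 (PUMA), BAD and PMAIP1 (NOXA) carry the BH3 domain alone, and they switch effectors on or bind survival proteins and so release them. The family is regulated to a large degree at the protein level, by cleavage of BID, phosphorylation of BAD and rapid turnover of MCL1, and none of these steps is seen in RNA.

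Levels are given in TPM, a read density corrected for transcript length and scaled to the size of each library, so that levels of different genes can be set side by side. Over the genes of the table, TPM summed to between 936783 and 937698 in the control libraries and between 912686 and 913707 in the MT-treated libraries, so the column totals were lower in the MT-treated group, and the part of this in the differences was not tested. TPM holds no counts, and the sequencing depth that the study tabulated was not used here. The 3 control libraries had 8854 to 8953 genes above 0 and the 3 MT-treated libraries 14372 to 14408, and 4037 of the 11953 genes tested (33.8%) were listed at 0 in all 3 control libraries, against 360 (3.01%) in all 3 MT-treated libraries. Genes that any cell needs are among those at 0 in control, such as POLR3K, a subunit of RNA polymerase III, so a gene at 0 is described only as listed at 0, with no fold change. Such a 0 may be a failed estimate, and whether the files of both groups were made in the same way was not tested. Every call of a higher or lower gene given here is subject to that limit. A gene was tested where 3 or more libraries reached 1 TPM. Differences were tested with limma on log2(TPM + 1) across all tested genes, with Benjamini-Hochberg adjustment and a threshold of 0.05. In what follows, values under MT are those of MT-treated libraries, and log2 differences are MT-treated minus control on that scale, which understates the change of genes of low level.

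The labelled stage was checked against marker genes. Of 7 trophectoderm markers in the table, all were tested, 6 rose and 1 fell in MT-treated blastocysts, beside 61.6% and 34.1% of all genes tested. The 1 that fell, KRT8, turned to a log2 difference of 0.15 with median centring. Their summed level was 11421 to 11763 TPM in control and 10703 to 11063 TPM under MT, mostly from the keratins KRT8 and KRT18. Of 6 inner cell mass markers, 3 were higher and 1 lower, against the same shares of all genes, with sums of 275 to 279 and 329 to 332 TPM. CDX2 and NANOG, defining markers of the trophectoderm and the inner cell mass, were listed at 0 in every control library, with 15.0 to 17.2 TPM and 8.23 to 8.93 TPM under MT. SOX2 had 0, 0.02 and 0 TPM in the control libraries. The summed level of 5 hypoblast markers was 0.2 to 0.44 TPM in control and 61.2 to 69.6 TPM under MT, with 3 of them tested and PDGFRA listed at 0 throughout control. These 3, like CDX2, NANOG and SOX2, passed the filter through the MT-treated group alone and so could only be called higher on the scale as deposited. Sums over 7 cumulus and granulosa markers were 17.2 to 19.2 TPM in control and 15.1 to 17.1 TPM under MT. Over 9 maternal oocyte transcripts they were 45.6 to 49.3 and 21.8 to 24.2 TPM. In control the first sum came from FSHR alone and the second from OOEP alone. The log2 difference of FSHR was -0.17, which turned to 0.31 with median centring. That of OOEP was -1.13, while BMP15, ZAR1 and MOS were listed at 0 in each control library and had 0.2 to 0.89 TPM under MT. The part of any of these cell types in the values of the BCL2 family was not tested. In pooled whole embryos, fewer cells of a type and less RNA per cell cannot be told apart.

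Of the 10 family genes, 9 reached the level required for testing, and 6 of these rose while 3 fell in MT-treated blastocysts (limma, adjusted p from 5.70e-10 to 0.00147). The higher genes were BAX, BAK1, BID, BAD, BCL2L1 and PMAIP1, and the lower ones were MCL1, BOK and BCL2L11. Over all genes tested, 61.6% were higher and 34.1% lower, together 95.7%, so the share of family genes called is near that of the transcriptome as a whole. The split of all calls depends on scaling, with 7367 higher and 4071 lower genes here, 5550 and 5311 after quantile normalization, and 8412 and 3038 after median centring, which aligns libraries on genes present in all 6. For all 9 tested members the 2 groups of libraries did not overlap, as for 96.1% of all genes tested. With 3 libraries against 3, exact permutation of the labels gives no p below 0.1 for any one gene. Of the 9, BAX, BAK1, BID, BAD and BCL2L1 passed the filter through the MT-treated group alone and BCL2L11 through the control group alone, so these had to differ.

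**Figure D1:**
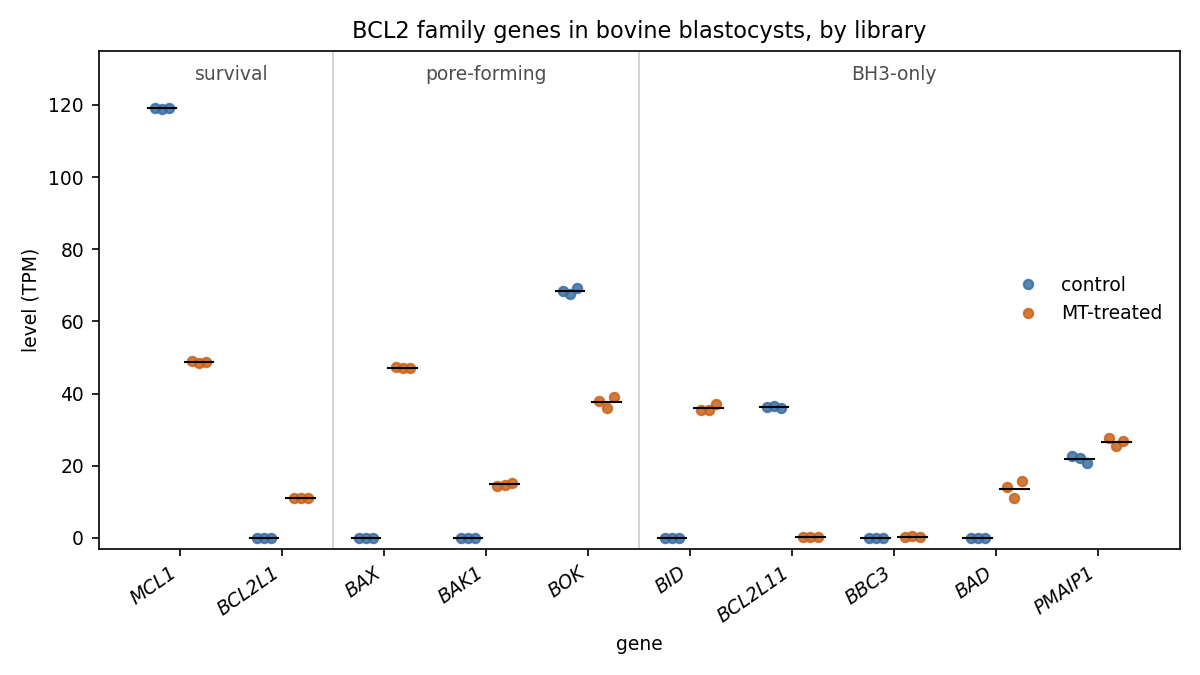
Level of each BCL2 family gene in TPM (vertical axis) in the 3 control and 3 MT-treated libraries, with 1 point per library, a black line at the group mean and genes grouped by role. MCL1, BOK and BCL2L11 sit lower in MT-treated blastocysts, PMAIP1 a little higher, and BAX, BAK1, BID, BAD and BCL2L1 go from 0 in every control library to between 11.0 and 47.4 TPM.

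Among the survival genes, MCL1 (ENSBTAG00000015154) was the most abundant family member in both groups. It had 119.25, 118.86 and 119.23 TPM in control and 49.0, 48.4 and 48.8 TPM under MT. All MT-treated values were far below all control values, and the libraries within a group were nearly alike. The coefficient of variation was 0.184% in control and 0.710% under MT. Whether so small a spread holds the variation between in vitro production runs was not tested, and the SD and p below depend on it. The mean fell from 119 ± 0.220 to 48.7 ± 0.346 TPM (mean ± SD, n = 3 each), a log2 difference of -1.27 (standard error 0.02, adjusted p = 4.28e-09 by limma). MCL1 protein is short-lived, and its loss alone is lethal to many cell types.

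BCL2L1 (ENSBTAG00000006526), the second survival gene, went the other way. It passed the filter through the MT-treated group alone and so could only be called higher on the scale as deposited. It was listed at 0 in each control library but had 11.2, 11.1 and 11.0 TPM under MT (adjusted p = 6.92e-10 by limma). In MT-treated blastocysts MCL1 therefore still made up 81.5% ± 0.107 (SD, n = 3) of the summed level of both genes, and 4.40 ± 0.0313 times the level of BCL2L1 (SD, n = 3). The sum of both was 119.25, 118.86 and 119.23 TPM in control, where it came from MCL1 alone, and 60.2, 59.4 and 59.8 TPM under MT.

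Among the effectors, BAX (ENSBTAG00000013340) was listed at 0 in each control library but had 47.4, 47.1 and 47.0 TPM under MT (adjusted p = 5.70e-10 by limma). BAK1 (ENSBTAG00000000428) was also listed at 0 in each control library but had 14.4, 14.7 and 15.3 TPM under MT (adjusted p = 8.49e-10 by limma). Both genes passed the filter through the MT-treated group alone and so could only be called higher on the scale as deposited. In MT-treated blastocysts BAX stood above BAK1 in every library.

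BOK (ENSBTAG00000008711) had 68.5, 67.6 and 69.1 TPM in control and 38.0, 36.0 and 38.9 TPM under MT. Every MT-treated library was below every control library. Its mean fell from 68.4 ± 0.791 to 37.6 ± 1.52 TPM (mean ± SD, n = 3 each), a log2 difference of -0.85 (standard error 0.03, adjusted p = 7.12e-07 by limma). This difference was -0.55 after quantile normalization and -0.37 with median centring. BOK was the sole effector above 0 in control. It made up 37.8% ± 0.881 of the effector sum in MT-treated blastocysts, where BAX made up 47.4% ± 0.887 and BAK1 14.9% ± 0.352 (SD, n = 3 each).

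Among the BH3-only genes, BID (ENSBTAG00000013988), which links death receptors to mitochondria once caspase 8 has cut its protein, was listed at 0 in each control library. Under MT it had 35.5, 35.4 and 37.1 TPM (adjusted p = 5.70e-10 by limma). BAD (ENSBTAG00000012511), which survival kinases hold in the cytosol by phosphorylation, was likewise listed at 0 in each control library but had 14.2, 11.1 and 15.7 TPM under MT (adjusted p = 1.80e-07 by limma). BAD varied more between MT-treated libraries than the other members above 1 TPM, with a coefficient of variation of 17.2%, and MT-treated replicate 2 was the low one. BID and BAD passed the filter through the MT-treated group alone and so could only be called higher on the scale as deposited.

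BCL2L11 (ENSBTAG00000024105), a strong activator of BAX and BAK1 that is induced when growth factors are withdrawn, showed the reverse pattern. It had 36.3, 36.5 and 36.1 TPM in control and 0.15, 0.15 and 0.37 TPM under MT. It was the only tested member whose MT-treated values all lay under 1 TPM. BCL2L11 thus passed the filter through the control group alone and could only be called lower on the scale as deposited. The log2 difference was -4.94 (standard error 0.08, adjusted p = 6.95e-09 by limma). With a pseudocount of 0.1 in place of 1 the difference was -6.88, so its size rests on that choice.

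PMAIP1 (ENSBTAG00000049851), which binds MCL1 and promotes its breakdown, was the member with the smallest tested difference on the scale as deposited. It had 22.8, 22.1 and 20.9 TPM in control and 27.8, 25.5 and 26.8 TPM under MT. The groups did not overlap, but they lay close together. The mean rose from 21.9 ± 0.996 to 26.7 ± 1.13 TPM (mean ± SD, n = 3 each), a log2 difference of 0.27 (standard error 0.05, adjusted p = 0.00147 by limma). Median centring raised the difference to 0.75, above the size of that of BOK (-0.37).

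BBC3 (ENSBTAG00000050313), a p53 target and activator, was listed at 0 in each control library but had 0.36, 0.46 and 0.19 TPM under MT. It did not reach the level required for testing. All of its values lay below 1 TPM.

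The order of levels within a group differed between control and MT-treated blastocysts. In control it ran from MCL1 through BOK and BCL2L11 to PMAIP1, with no overlap between neighbours, and the other 6 genes were listed at 0. In MT-treated blastocysts it ran from MCL1 and BAX through BOK, BID, PMAIP1, BAK1, BAD and BCL2L1 to BBC3 and BCL2L11. There the ranges over libraries overlapped for BOK and BID, for BAK1 and BAD, for BAD and BCL2L1, and for BBC3 and BCL2L11, and these neighbours cannot be ranked. MCL1 and BAX were close, at 48.4 to 49.0 and 47.0 to 47.4 TPM, without overlap.

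Summed over its 10 genes, the family held a similar share of the transcriptome in both groups, at 246.91, 245.0 and 245.35 TPM in control and 237.97, 229.71 and 241.15 TPM under MT. The sums that follow take every listed 0 at face value, and 6 of the 10 genes in them were at 0 in all control libraries. The effector sum was 68.5, 67.6 and 69.1 TPM in control and 99.8, 97.8 and 101.2 TPM under MT. The BH3-only sum was 59.1, 58.6 and 57.0 TPM in control, where BCL2L11 made up 62.3% and PMAIP1 the remainder. It was 78.0, 72.5 and 80.1 TPM under MT, where BID made up 46.9%, PMAIP1 34.8%, BAD 17.7% and BCL2L11 0.287%. No test was made on sums over members.

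**Figure D2:**
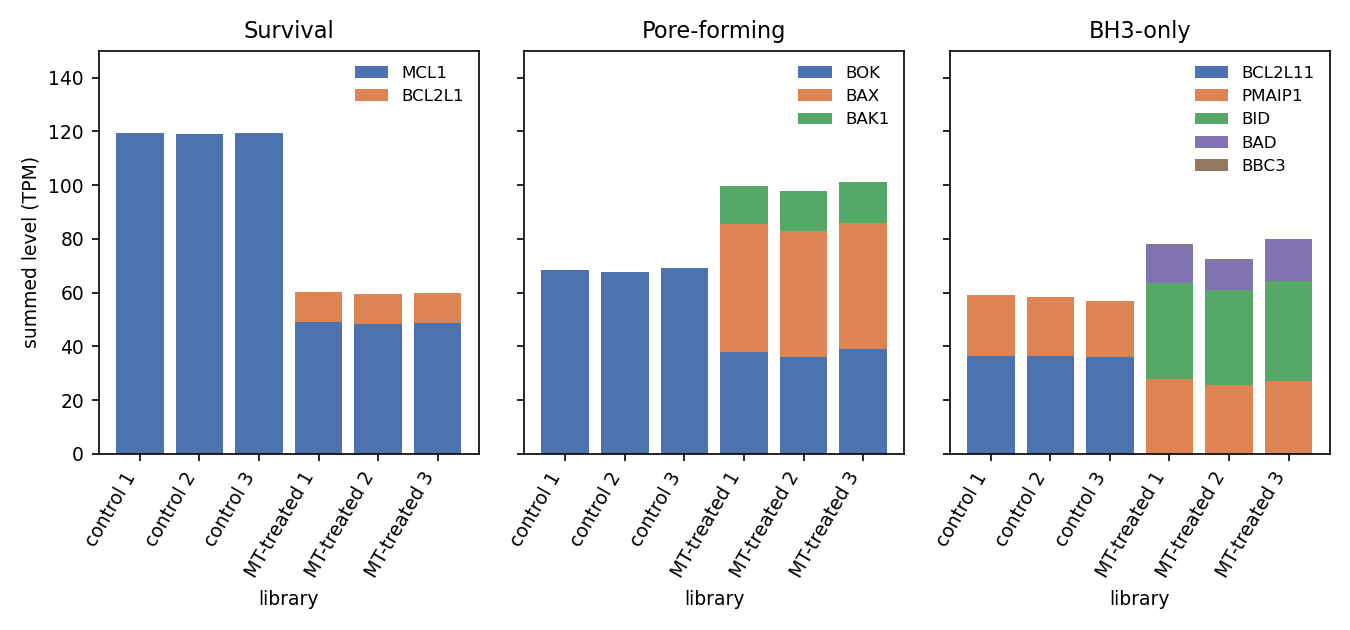
Summed level in TPM (vertical axis, from 0) of the survival, pore-forming and BH3-only genes in each library (horizontal axis), with each gene's part in its own colour. The survival sum is lower and the effector and BH3-only sums are higher in every MT-treated library, and in the BH3-only bars BCL2L11 takes the larger part in control, where BID and BAD are listed at 0, and BID the largest part under MT.

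A ratio of levels within a library does not change when that library is rescaled. The summed effectors were 0.575, 0.568 and 0.580 times the summed survival genes in the control libraries and 1.66, 1.65 and 1.69 times in the MT-treated libraries, a log2 difference of 1.54 between group means. This ratio takes the genes listed at 0 at face value. Between genes above 1 TPM in all libraries, MCL1 was 1.74 ± 0.0173 times BOK in control and 1.3 ± 0.046 times BOK in MT-treated blastocysts (SD, n = 3 each). PMAIP1 was 0.184 ± 0.00839 times MCL1 in control and 0.548 ± 0.0193 times MCL1 in MT-treated blastocysts (SD, n = 3 each). None of these ratios overlapped between the groups, and neither did the single levels of 96.1% of all genes tested.

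MCL1, BOK, PMAIP1 and BCL2L11 were above 0 in all 6 libraries, as were 6925 tested genes. The median log2 difference was -1.06 over these 4 and -0.19 over the 6925, with 3 of the 4 lower and 1 higher, against 3620 lower and 2809 higher. Ranked among the 6925 genes, MCL1 stood at percentile 81.8 in control and 68.8 in MT-treated blastocysts, BOK at 70.6 and 62.5, and BCL2L11 at 52.6 and 1.23. PMAIP1 stood at 40.4 and 53.3. The directions by rank were those of the TPM values. Between replicates, the coefficient of variation of these 4 genes had a median of 0.820% in control and 4.13% in MT-treated blastocysts, beside 3.27% and 4.03% over the 6925 genes.

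Centring removed a shift of -0.48 on the log2 scale between the groups in genes at 1 TPM or more in all libraries. Relative to that shift, the log2 difference was -0.79 for MCL1 and -0.37 for BOK. The median difference over all genes tested was 1.12, and it was 0.04 after quantile normalization and 1.6 after centring. MCL1, BOK and PMAIP1, the members that passed the filter through both groups, were called in the same direction under each alternative. Of the 4707 tested genes whose MT-treated mean lay between 11.1 and 47.2 TPM, the range of the 5 tested members listed at 0 in control, 36.6% were also listed at 0 in all 3 control libraries.

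**Figure D3:**
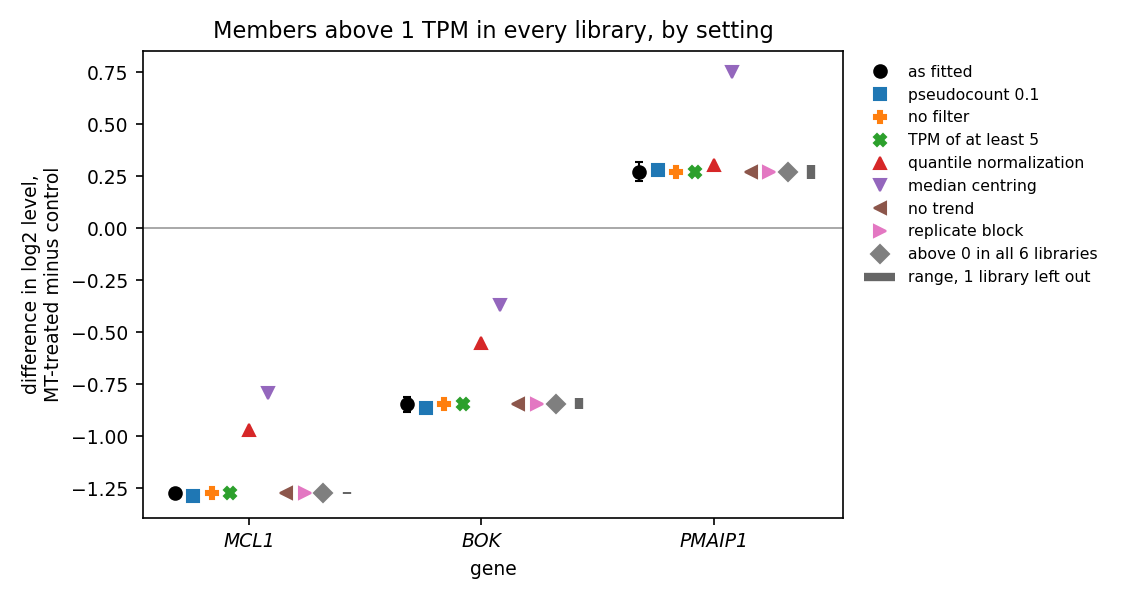
Difference in log2 level between MT-treated and control blastocysts (vertical axis) for MCL1, BOK and PMAIP1 under each setting, with the standard error of the fit as reported on the black point and a grey bar for the range when 1 library is left out. All points of MCL1 and BOK lie below 0 and all points of PMAIP1 above 0, and median centring moves each gene upward by the same amount.

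Some members share genome with a neighbour in the RefSeq annotation. BAX overlaps TULP2 and BCL2L11 overlaps ACOXL, and both neighbours were listed at 0 in all 6 libraries. BCL2L1 overlaps a long noncoding RNA gene and BID a tRNA gene, and no values of these were used here. BAD overlaps GPR137, which had 2.99, 3.54 and 3.40 TPM in control and 3.41, 3.14 and 3.08 TPM under MT. How reads in shared stretches were counted is not given in the sources used here, so the levels of these 5 members are uncertain to that extent. No overlapping gene was found for MCL1, BOK, BAK1, PMAIP1 and BBC3, but a name absent or repeated in that annotation would also give none.

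Of 13 further genes of the family or with related domains, 10 were found in the table. BCL2L10, BIK and BNIP3 were not found under these names. BCL2 itself, BCL2A1, BCL2L15 and HRK were listed at 0 in all 6 libraries. The remaining 6 were all tested and all higher in MT-treated blastocysts (limma, adjusted p from 1.23e-09 to 7.69e-07), where 61.6% of all genes tested were higher. All of them but BNIP3L passed the filter through the MT-treated group alone, so these 5 could only be called higher on the scale as deposited. The split was 5 higher and 1 lower after quantile normalization. BCL2L13, a mitophagy receptor, had 0, 0 and 0.13 TPM in control and 23.7, 21.9 and 21.4 TPM under MT. BCL2L12 was listed at 0 in each control library but had 21.7, 22.2 and 20.2 TPM under MT. BMF, a BH3-only gene, was listed at 0 in each control library but had 10.2, 9.92 and 9.50 TPM under MT.

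BNIP3L, a mitophagy receptor named after its values were seen, was the one of the 6 above 1 TPM in control. It had 7.14, 6.57 and 6.33 TPM in control and 56.2, 53.6 and 56.3 TPM under MT (log2 difference 2.88, standard error 0.05, adjusted p = 1.00e-08 by limma).

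BCL2L14 was also listed at 0 in each control library, with 7.58, 6.65 and 6.52 TPM under MT. BCL2L2, the third survival gene above 0, was listed at 0 in each control library but had 1.57, 1.90 and 1.52 TPM under MT. Its direction reversed after quantile normalization, to a log2 difference of -0.40, and it overlaps PABPN1, a gene of 54.4 to 87.4 TPM, in the RefSeq annotation. With each listed 0 taken at face value, 1 survival gene of the wider family was above 1 TPM in control, MCL1, and 3 in MT-treated blastocysts. The count leaves out BCL2L10, which was not found. Over all genes tested, 33.8% were listed at 0 in all 3 control libraries and 3.01% in all 3 MT-treated libraries.

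The list of the mitochondrial death pathway holds partners of the family on the outer membrane, factors released from mitochondria, and caspases. Of its 16 genes, 13 were tested, of which 8 rose and 5 fell, beside 61.6% and 34.1% of all genes tested. The split was 7 to 4 after quantile normalization and 11 to 1 after median centring. APAF1, ENDOG and CASP8 passed the filter through the MT-treated group alone and so could only be called higher on the scale as deposited. APAF1, the scaffold of the apoptosome, was listed at 0 in each control library but had 12.6, 13.2 and 14.9 TPM under MT (adjusted p = 9.65e-09 by limma). ENDOG, a mitochondrial nuclease, was listed at 0 in each control library but had 6.64, 5.85 and 7.28 TPM under MT (adjusted p = 5.79e-08 by limma). It overlaps SPOUT1, which had the same pattern.

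HTRA2, a protease that is released with cytochrome c, had 1.23, 1.04 and 1.09 TPM in control and 9.77, 10.3 and 10.9 TPM under MT (log2 difference 2.42, standard error 0.06, adjusted p = 4.24e-08 by limma), but -0.57 after quantile normalization. It overlaps LOXL3, which had 5.14 to 5.64 TPM in control and was listed at 0 in MT-treated libraries. VDAC3, a channel of the outer membrane, fell from 187 ± 3.76 to 107 ± 0.154 TPM (mean ± SD, n = 3 each), a log2 difference of -0.80 (standard error 0.02, adjusted p = 6.08e-08 by limma) that was -0.32 with median centring.

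VDAC2, the channel that holds BAK1 at the outer membrane, fell from 937 ± 3.94 to 784 ± 6.39 TPM (mean ± SD, n = 3 each), a log2 difference of -0.26 (adjusted p = 6.91e-07 by limma) that turned to 0.22 with median centring. CASP8, which cuts BID, was listed at 0 in each control library but had 1.65, 2.28 and 1.51 TPM under MT, a direction that reversed after quantile normalization (-0.37).

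CASP9, the initiator caspase of the apoptosome, was listed at 0 in all 6 libraries. XIAP, an inhibitor of caspases, was listed at 0 in each control library, had 0.14, 0.04 and 0.12 TPM under MT and did not reach the level required for testing.

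Of 28 genes that regulate the family, 25 were tested, 11 were higher, 10 lower and 4 were not called, beside 61.6% and 34.1% of all genes tested. Quantile normalization gave 6 higher and 17 lower, and median centring gave 15 higher and 9 lower. Named here are the 3 largest falls on the log2 scale. FBXW7, an adaptor of a ubiquitin ligase of MCL1, fell from 23.4 ± 0.771 to 1.11 ± 0.0600 TPM (mean ± SD, n = 3 each), a log2 difference of -3.53 (standard error 0.04, adjusted p = 2.28e-09 by limma). GSK3B, a kinase that marks MCL1 for breakdown, fell from 173 ± 1.80 to 19.7 ± 0.613 TPM (mean ± SD, n = 3 each), a log2 difference of -3.07 (adjusted p = 1.03e-09 by limma). HUWE1, a ubiquitin ligase of MCL1, fell from 84.9 ± 3.60 to 17.4 ± 1.22 TPM (mean ± SD, n = 3 each), a log2 difference of -2.23 (adjusted p = 7.60e-08 by limma).

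USP9X, a deubiquitinase that stabilizes MCL1, had 3.96, 3.90 and 4.14 TPM in control and 12.3, 12.8 and 12.0 TPM under MT (log2 difference 1.42, standard error 0.04, adjusted p = 9.91e-08 by limma), but -0.62 after quantile normalization. The level of MCL1 protein was not measured.

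The other named rises in that list were in genes listed at 0 in each control library, which passed the filter through the MT-treated group alone where they were tested. TP63, a relative of p53, had 5.75, 7.60 and 6.29 TPM under MT, AKT2, a kinase that phosphorylates BAD, had 1.54, 1.98 and 1.47 TPM, and MAPK8, a stress kinase that acts on BCL2L11, had 1.54, 1.35 and 1.52 TPM. The direction of AKT2 and MAPK8 reversed after quantile normalization, with log2 differences of -0.41 and -0.46. PIM1, a kinase that also phosphorylates BAD, had 0.34, 0.46 and 0.25 TPM under MT and was not tested. Of 7 genes of the 14-3-3 proteins, which hold phosphorylated BAD in the cytosol and were grouped here after their values were seen, 3 were higher and 3 lower, beside 61.6% and 34.1% of all genes tested. The counts became 2 and 4 after quantile normalization and 4 and 2 after centring.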

How the data were processed

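Per the labels and methods, reads were checked with FastQC 0.11.9, aligned with STAR 2.7.9a and counted with featureCounts (Subread 1.6.3). The methods name the genome build ARS-UCD1.3 and the Smart-seq2 protocol, whereas the labels name ARS-UCD1.2 and a TruSeq kit. The values deposited by the authors are TPM with 2 decimals, 1 column a library. How counts became TPM is not given in the sources used here. Without counts, no counting error can be given, and whether replicates differ by more than sampling noise could not be tested.

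Genes that reached 1 TPM in 3 or more libraries were fitted on log2(TPM + 1) in limma 3.58.1 (lmFit, eBayes with trend) under R 4.3.3, with Benjamini-Hochberg adjustment over 11953 genes at 0.05. The members and lists were chosen with earlier results of these data known. All 10 members are named, and from each other list the 3 largest rises and falls among called genes and those listed at 0 in a whole group, of which some are not reported here. Lists were written from general knowledge. Overlaps come from RefSeq genes on ARS-UCD2.0, a different build, so no coordinates are given. Protein sequences were not used here. Alternatives were quantile normalization, median centring, a smaller pseudocount (0.1), a filter at 5 TPM or none, eBayes without the trend, a replicate block, and leaving out each library. Fitting only the genes above 0 in every library was added after the data were seen.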

Additional observations from a re-analysis of the deposited data

How the results depend on the processing

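MCL1, BOK and PMAIP1 kept their direction and their side of the threshold under each of the 14 alternatives. The other 6 tested members also did where they were fitted, but these had to differ, so that says nothing of stability, and the highest adjusted p among them was 0.00586, for BAD after quantile normalization. The counts of 6 higher and 3 lower members were the same with a pseudocount of 0.1, a minimum TPM of 5, either scaling, no trend and each library left out, and without a filter BBC3 was also called, giving 7 and 3. Restricted to genes above 0 in all 6 libraries, 1 member was higher and 3 lower, since 4 members could then be fitted, and over all genes 2814 were higher in place of 7367, from 6925 genes tested. With 1 library left out, the log2 difference lay between 0.24 and 0.30 for PMAIP1, -0.87 and -0.81 for BOK, and -5.02 and -4.89 for BCL2L11, where the group left with 2 libraries is assumed to vary like the other. No source ties replicate numbers to shared runs. Deviations from the group means of same-numbered libraries had correlations across genes of -0.0115, -0.000679 and 0.0588, so the numbers were not used as pairs, though libraries of both groups may still come from shared runs. With a replicate block 7379 genes were higher and 4082 lower, with the same 6 and 3 members. The depth of the libraries was not used here, and no limit is set on a listed 0.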

Other observations

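Outside the lists, 5 more genes have a description in the table that names BCL2, a set chosen after the data were seen. BNIPL was listed at 0 in all 6 libraries, and the other 4 split into 2 that rose and 2 that fell, beside 61.6% and 34.1% of all genes tested. BNIP1 and BNIP5, the 2 that rose, passed the filter through the MT-treated group alone and could only be called higher. BNIP1, a membrane fusion protein of the endoplasmic reticulum, was listed at 0 in each control library but had 16.2, 16.7 and 18.5 TPM under MT. BNIP5 had 0, 0 and 0.03 TPM in control and 13.6, 13.2 and 12.3 TPM under MT. BCLAF1, a factor in transcription and splicing, had 45.4, 48.8 and 48.1 TPM in control and 11.7, 11.9 and 11.7 TPM under MT, a log2 difference of -1.93 (standard error 0.03, adjusted p = 1.41e-08 by limma) that was -3.17 after quantile normalization. BNIP2 had 368, 363 and 351 TPM in control and 279.93, 280.99 and 275 TPM under MT, a log2 difference of -0.37 (standard error 0.02, adjusted p = 4.73e-06 by limma) that turned to 0.11 with median centring.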
